A study of Mus musculus with 9 samples.

Results

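The proteasome genes of mouse splenic CD4+ T cells were followed from the naive state through 3 h of activation at 37 °C or at 39 °C, in RNA sequencing libraries of 3 per group. The members are the 50 protein-coding genes whose symbol starts with Psm, a letter from a to g and a digit in the GRCm38 annotation, out of 55573 gene identifiers counted in each library. Of the 50, 48 passed the filter on low counts and were tested. The others, left untested, were the testis alpha subunit gene Psma8, with 3 counts over the 9 libraries, and the thymus beta subunit gene Psmb11, with 29. Psmc3ip fits the symbol rule but encodes a recombination factor and no proteasome subunit, and is counted with the members only because of its name.

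All cells came from spleens of B6 mice. The naive group was left unactivated. Both activated groups met plate-bound anti-CD3 and anti-CD28 for 3 h, in an incubator at 37 °C or at 39 °C, and differ from each other in temperature alone as far as the labels say. The culture protocol speaks of spleen cells and the design text of isolated CD4+ T cells, and neither says whether replicates came from separate mice, so the spread behind every p-value is that between libraries and may be technical. The label was checked against markers. The 10 T cell and CD4 genes summed to between 5454.0 and 6948.6 CPM (counts normalised to library depth, with TMM scaling) over the 9 libraries, the 2 CD8 genes to between 12.6 and 36.1 CPM, and the 12 B cell genes to between 777 and 930 CPM in naive libraries against 242 to 272 CPM in activated ones. No library was without B cell transcripts. Each library held 12647692 to 17605549 counts, of which the 50 members took 0.454% ± 0.0441 in the naive group, 0.542% ± 0.0195 in the 37 °C group and 0.561% ± 0.0261 in the 39 °C group (SD, n = 3).

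The proteasome degrades proteins tagged with ubiquitin. Its 20S core is a barrel of outer alpha and inner beta rings, and the 19S regulatory particle that caps it recognises, unfolds and feeds in the substrate with the help of a ring of ATPases. In lymphocytes the catalytic beta subunits encoded by Psmb5, Psmb6 and Psmb7 can be replaced in newly built cores by Psmb8, Psmb9 and Psmb10, which gives the immunoproteasome known for making peptides for class I molecules. PA28, made from Psme1 and Psme2 or from Psme3, is an alternative cap, and the products of Psmg1 to Psmg4 help to assemble the core.

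After 3 h at 37 °C most 19S genes and many 20S genes were higher than in naive cells, and the immune catalytic genes were lower. Of the 48 members tested, 26 rose and 4 fell (edgeR quasi-likelihood test, adjusted p under 0.05), while 30.9% of all 13328 genes tested rose and 31.8% fell. At 39 °C 29 members rose and 3 fell, against 29.2% and 29.8% of all genes. The median log2 fold change of the members was 0.29 at 37 °C and 0.38 at 39 °C, against -0.00248 and -0.00274 over all genes tested. Both comparisons use the same naive libraries, so they are not independent of each other. Upper-quartile scaling set the median of all genes at -0.14 and -0.13 and that of the members at 0.15 and 0.26. It set the split at 18 members higher and 7 lower at 37 °C, with 3340 higher and 5139 lower of all 13328 genes. At 39 °C it gave 22 members higher and 6 lower, with 3092 and 4914 of all genes. Without naive library 2 the split at 39 °C was 26 members higher and 5 lower, with 4030 and 4133 of 13583 genes.

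**Figure D1:**
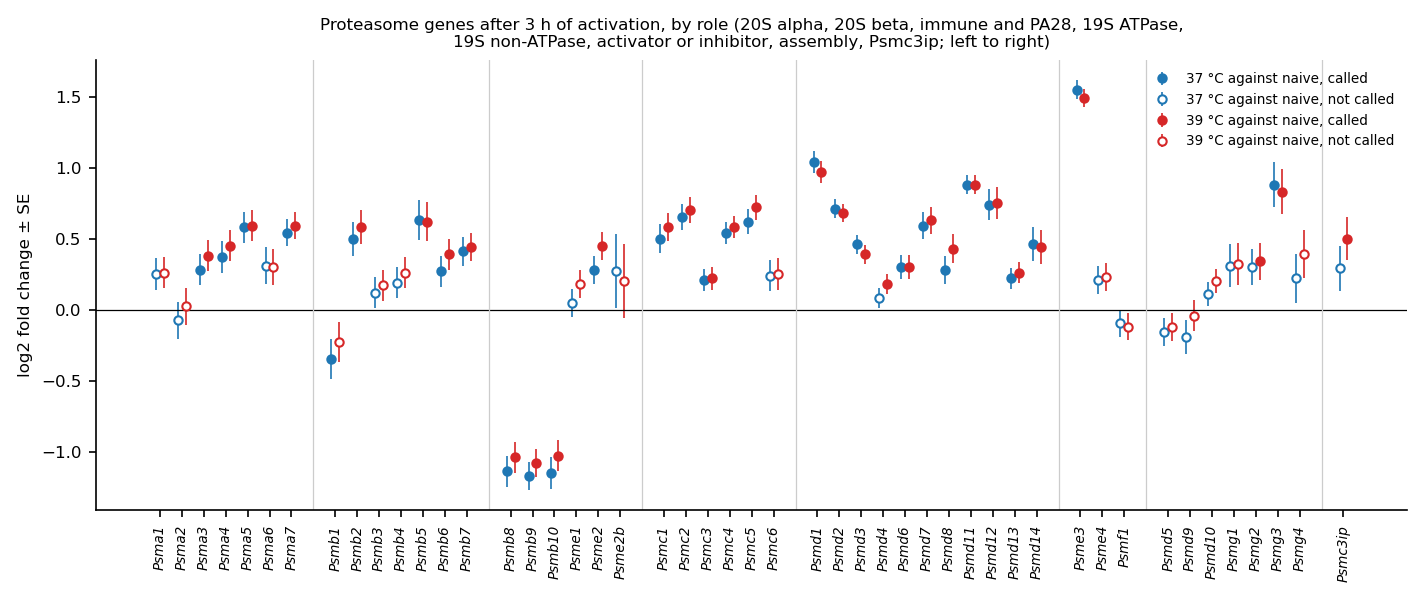
Log2 fold change against naive cells for each of the 48 tested genes, with the standard error of the fit as bars, at 37 °C (blue) and 39 °C (red), arranged by role. Filled points passed the test. Psmb8, Psmb9 and Psmb10 lie near -1 at both temperatures, Psme3 near 1.5, and the 19S genes all lie above 0, where Psmd4 at 37 °C would lie below 0 with upper-quartile scaling.

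The 3 immune catalytic subunits fell to less than 0.5 of their naive level at both temperatures. Psmb8, the subunit that takes the place of the chymotrypsin-like Psmb5, stood at 217, 158 and 177 CPM in the naive libraries, at 86.3, 75.9 and 88.5 CPM at 37 °C and at 97.9, 87 and 83.5 CPM at 39 °C. Psmb9, which replaces the caspase-like Psmb6, went from 224, 167 and 197 CPM to 88.5, 84.2 and 88.8 CPM at 37 °C and 99.7, 94.8 and 83.5 CPM at 39 °C. Psmb10, which replaces the trypsin-like Psmb7, went from 151, 105 and 129 CPM to 59.9, 55.1 and 58.8 CPM and to 67.6, 61.5 and 59.2 CPM. In each of these genes every naive library lay above every activated library, and the libraries of the activation temperatures overlapped. The log2 fold changes at 37 °C were -1.14 ± 0.11 for Psmb8 (2.2-fold lower, adjusted p = 3.55e-06), -1.17 ± 0.10 for Psmb9 (2.25-fold lower, adjusted p = 1.13e-06) and -1.15 ± 0.11 for Psmb10 (2.21-fold lower, adjusted p = 3.35e-06), with the standard error of the fit. At 39 °C they were -1.04 ± 0.11, -1.08 ± 0.10 and -1.03 ± 0.11. These 3 calls stood under every scaling, filter, tool and left-out library that was run.

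Markers of other cells fell alongside. Both CD8 genes fell, Cd8a by 2.01 and Cd8b1 by 0.97 on the log2 scale at 37 °C, and their sum went from between 25.8 and 36.1 CPM in naive libraries to between 13.5 and 15.1 CPM at 37 °C and between 12.6 and 14.6 CPM at 39 °C. Of the 12 B cell genes 11 fell at 37 °C, and their sum went from 856 ± 76.8 CPM to 246 ± 4.85 CPM and, at 39 °C, 264 ± 7.43 CPM. Summed myeloid and dendritic markers went from between 15.6 and 20.3 CPM in naive libraries to between 9.24 and 10.6 CPM at 37 °C and between 8.19 and 11.4 CPM at 39 °C, NK markers from between 14.5 and 17.4 to between 10.4 and 11.6 and between 6.79 and 10 CPM, and erythroid markers from between 135 and 225 to between 2.79 and 3.22 and between 2.94 and 4.18 CPM. No marker was at 0 in every library, and of the myeloid and dendritic markers Fcgr1 and Siglech had no counts at 37 °C. B cells and myeloid cells also express immune catalytic subunits, and the part these markers have in the fall was not tested. In bulk libraries fewer cells of a type and less RNA per cell cannot be told apart.

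The subunits that Psmb8, Psmb9 and Psmb10 replace moved the other way. Psmb5 stood at 43.1, 27.1 and 33.5 CPM in naive cells and at 52, 49.9 and 58.1 CPM at 37 °C, with no overlap, and rose by 0.63 ± 0.14 on the log2 scale (adjusted p = 0.00181). Psmb7 rose by 0.41 ± 0.10 (adjusted p = 0.00357). Psmb6 rose by 0.27 ± 0.11 with an adjusted p of 0.0453, a call that was lost with upper-quartile scaling, with DESeq2 and when any of the 37 °C libraries, 39 °C library 2, naive library 2 or naive library 3 was left out. At 39 °C the rises were 0.62 ± 0.14, 0.44 ± 0.10 and 0.39 ± 0.11 for Psmb5, Psmb7 and Psmb6. Summed, the immune catalytic genes went from 508 ± 81.5 CPM to 229 ± 11.7 CPM at 37 °C and 245 ± 19.6 CPM at 39 °C, while the constitutive catalytic genes stood at 171 ± 26.7, 222 ± 8.8 and 233 ± 24 CPM (SD, n = 3).

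**Figure D2:**
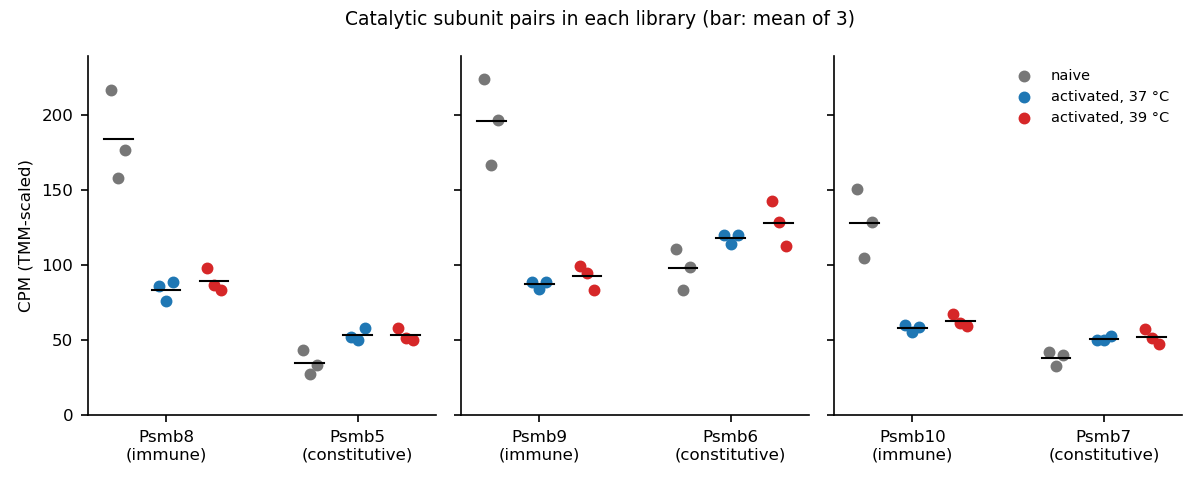
TMM-scaled CPM of the immune catalytic subunit and the subunit it replaces in each of the 9 libraries, with the mean of each group of 3 as a bar. Psmb8 fell from a naive mean of 184 CPM to 83.6 CPM at 37 °C, while Psmb5 rose from 34.5 to 53.3 CPM.

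A ratio of 2 genes within a library does not depend on how libraries were scaled. Psmb8 had 5.04, 5.82 and 5.28 counts per count of Psmb5 in the naive libraries, 1.66, 1.52 and 1.52 at 37 °C and 1.69, 1.70 and 1.66 at 39 °C. Psmb9 had 2.01, 2.00 and 2.00 counts per count of Psmb6 in naive cells, 0.74 in each library at 37 °C and 0.70, 0.74 and 0.74 at 39 °C. Psmb10 had 3.57, 3.21 and 3.23 counts per count of Psmb7 in naive cells, 1.19, 1.10 and 1.11 at 37 °C and 1.18, 1.19 and 1.25 at 39 °C. Every naive ratio lay above every activated ratio in all 3 pairs. On the log2 scale the mean ratio was lower at 37 °C by 1.78, 1.44 and 1.55 in the order of the pairs, with within-group SDs of at most 0.11. Between temperatures the log2 ratios of Psmb8 averaged 0.65 ± 0.0718 at 37 °C and 0.75 ± 0.0151 at 39 °C (SD, n = 3). They did not overlap, though the highest 37 °C and the lowest 39 °C library both round to 0.73. The ratios of the other pairs overlapped. These ratios are descriptions without a test. A correction for gene length shifts each ratio by a constant that depends on the transcript taken, so the size of a ratio is not read as a ratio of molecules here, and its change between groups is the same with any length.

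**Figure D3:**
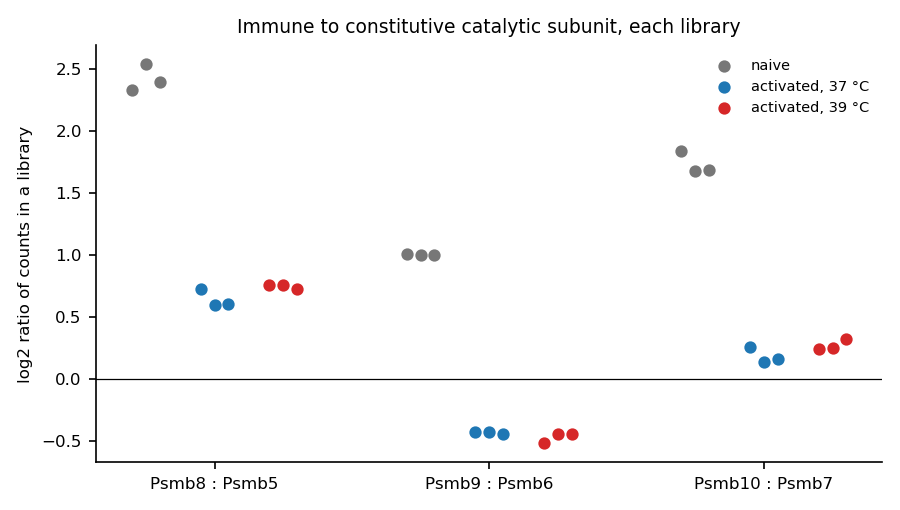
Log2 ratio of the counts of each immune subunit to the counts of the subunit it replaces, 1 point per library. The Psmb9 to Psmb6 ratio lies above 0 in the 3 naive libraries and below 0 in all 6 activated ones, and the other ratios stay above 0.

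Psmb8 and Psmb9 are neighbours on chromosome 17 with the transporter genes Tap1 and Tap2, which carry peptides into the endoplasmic reticulum. In GENCODE the start sites of Psmb9 and Tap1 lie 211 bp apart on opposite strands and their exons share 212 bp, 5.79% of the exons of Psmb9, so with the strand setting not stated a few reads could be shared. Tap1 stood at 455, 459 and 481 CPM in naive cells and at 328, 308 and 305 CPM at 37 °C, and fell by 0.57 on the log2 scale (adjusted p = 9.6e-06). Tap2 fell by 0.60 (adjusted p = 6.16e-06). Psmb10 lies apart, on chromosome 8. The windows around their RefSeq start sites (GRCm38.p6, 250 bases before to 50 after, 5′ to 3′ on the gene's strand) are shown because these 3 genes moved together. They are chr17:34197945-34198244 on the plus strand, chr17:34187281-34187580 on the minus strand and chr8:105938343-105938642 on the minus strand, and capitals mark matches to the motifs searched. The GENCODE start sites of Psmb8 (34197721) and Psmb9 (34187764) lie outside these windows. The matches below therefore concern the RefSeq start sites only.

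Psmb8: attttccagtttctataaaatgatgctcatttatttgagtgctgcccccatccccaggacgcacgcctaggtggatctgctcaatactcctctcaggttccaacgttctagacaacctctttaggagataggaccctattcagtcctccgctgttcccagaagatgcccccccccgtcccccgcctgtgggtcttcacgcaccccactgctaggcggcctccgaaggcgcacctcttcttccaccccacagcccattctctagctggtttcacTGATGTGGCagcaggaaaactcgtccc

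Psmb9: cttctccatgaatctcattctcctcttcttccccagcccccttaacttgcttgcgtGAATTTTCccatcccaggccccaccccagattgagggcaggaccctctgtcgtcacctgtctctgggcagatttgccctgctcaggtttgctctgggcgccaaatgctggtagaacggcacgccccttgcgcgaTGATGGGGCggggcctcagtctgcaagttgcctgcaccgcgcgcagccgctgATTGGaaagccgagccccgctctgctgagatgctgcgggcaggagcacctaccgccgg

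Psmb10: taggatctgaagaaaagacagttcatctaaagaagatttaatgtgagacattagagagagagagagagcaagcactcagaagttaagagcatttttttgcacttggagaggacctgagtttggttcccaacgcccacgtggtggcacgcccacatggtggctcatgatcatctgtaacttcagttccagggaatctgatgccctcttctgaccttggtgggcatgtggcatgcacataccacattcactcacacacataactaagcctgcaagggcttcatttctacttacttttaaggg

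Psmb8 held a TGANNNNGC match (the core of the antioxidant response element) that starts 24 bases after the start site. Psmb9 held the same motif, a GAANNTTC pair of heat shock units and an ATTGG, which is CCAAT on the other strand. Psmb10 held none of the 7 motifs. The interferon core GAAANNGAA was in none of these 3 windows, which says only that these letters are not there.

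Of the PA28 genes that belong with the immunoproteasome, neither fell. Psme1 stood at 348, 262 and 288 CPM in naive cells, 307, 297 and 323 CPM at 37 °C and 367, 337 and 315 CPM at 39 °C, with log2 values of 0.0465 ± 0.10 (adjusted p = 0.705) and 0.18 ± 0.10 (adjusted p = 0.139). The 37 °C value for Psme1 turned negative with upper-quartile scaling (-0.0873) and without naive library 2 (-0.0415). Psme2 stood at 215, 163 and 186 CPM in naive cells, 235, 213 and 239 CPM at 37 °C and 278, 253 and 241 CPM at 39 °C. It rose by 0.28 ± 0.0993 at 37 °C (adjusted p = 0.0258) and by 0.45 ± 0.0992 at 39 °C (adjusted p = 0.00194). Its naive and 37 °C libraries overlapped, and the 37 °C call was lost with upper-quartile scaling and without 37 °C library 1, 37 °C library 3, naive library 2 or naive library 3. Psme2b, a near copy of Psme2 whose reads may be split with it, is uncertain and was not called. Psme1 and Psme2 were the highest members per length in naive cells, at 135 ± 19.9 and 107 ± 14.7 CPM per kilobase of exon union (SD, n = 3).

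Psme3, whose product forms the nuclear PA28 cap, had the largest change of all members. It stood at 134, 129 and 122 CPM in naive cells, at 370, 376 and 381 CPM at 37 °C and at 367, 354 and 366 CPM at 39 °C. Naive and activated libraries were far apart, and the 39 °C libraries all lay below the 37 °C ones by a small margin. The gene rose by 1.55 ± 0.0644 on the log2 scale at 37 °C (2.92-fold, adjusted p = 1.75e-09) and by 1.49 ± 0.0643 at 39 °C (2.82-fold). Per length it went from 43.6 ± 2.09 to 127 ± 1.75 CPM per kilobase of exon union at 37 °C, beside 140 ± 5.94 for Psme1 and 130 ± 8.09 for Psme2 (SD, n = 3). With the longest principal transcript as length the 37 °C levels were 141 for Psme3, 278 for Psme1 and 238 for Psme2, so how near Psme3 came to the others depends on the length. Psme4, which encodes the PA200 cap, had log2 values of 0.21 ± 0.10 at 37 °C (adjusted p = 0.102) and 0.23 ± 0.10 at 39 °C (adjusted p = 0.0782). Psmf1, which encodes the inhibitor PI31, had -0.096 ± 0.0949 (adjusted p = 0.397) and -0.12 ± 0.0948 (adjusted p = 0.287), and was called lower in both comparisons with upper-quartile scaling or without naive library 2.

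Nearly all genes of the 19S particle rose. Of its 17 members 15 rose and 0 fell at 37 °C, with a median log2 fold change of 0.50, and 16 rose at 39 °C, with a median of 0.58. Over all genes tested, 30.9% rose at 37 °C and 29.2% at 39 °C. The 37 °C calls of Psmc3, Psmd6, Psmd8 and Psmd13 did not hold under every alternative fit. That of Psmd8 was lost with upper-quartile scaling and when any of the 37 °C libraries, naive library 2 or naive library 3 was left out. Summed, the 17 members went from 1639.6 ± 139 CPM in naive cells to 2295.4 ± 88.9 CPM at 37 °C and 2338.9 ± 93.2 CPM at 39 °C (SD, n = 3). Among the non-ATPase subunits 10 of 11 rose at 37 °C. Psmd1, a large scaffold subunit that holds the ubiquitin receptor Adrm1, stood at 48.2, 54.9 and 50.9 CPM in naive cells, 101, 106 and 110 CPM at 37 °C and 97.7, 95.4 and 109 CPM at 39 °C. It rose by 1.04 ± 0.0763 at 37 °C (2.05-fold, adjusted p = 2.33e-07) and by 0.97 ± 0.0762 at 39 °C. Psmd11, a lid subunit, went from 79.9, 72.8 and 72.6 CPM to 142, 130 and 144 CPM and to 142, 135 and 136 CPM, a rise of 0.88 ± 0.0687 at 37 °C (adjusted p = 3.97e-07). Psmd12, another lid subunit, rose by 0.74 ± 0.11 (adjusted p = 7.59e-05). Psmd14, the deubiquitinase that removes ubiquitin chains from substrates, stood at 82.1, 57.2 and 71.6 CPM in naive cells and at 97, 88.7 and 105 CPM at 37 °C, with no overlap, and rose by 0.46 ± 0.12 (adjusted p = 0.00436).

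The exception among the non-ATPase subunits at 37 °C was Psmd4, which encodes a ubiquitin receptor. It stood at 167, 158 and 169 CPM in naive cells, 178, 167 and 177 CPM at 37 °C and 200, 183 and 177 CPM at 39 °C, with a log2 value of 0.0825 ± 0.0685 at 37 °C (adjusted p = 0.312), which turned to -0.0515 with upper-quartile scaling. At 39 °C it rose by 0.18 ± 0.0684 (adjusted p = 0.0351). That call was lost with upper-quartile scaling, library size alone, no count filter or the 6 libraries alone, and without 37 °C library 1 or 3, 39 °C library 1 or 2, or naive library 2. Of the 6 ATPases, 5 rose at each temperature. The 3 with the largest change at 37 °C were Psmc2, up by 0.65 ± 0.0926, Psmc5, up by 0.62 ± 0.0903, and Psmc4, up by 0.54 ± 0.0768, with adjusted p-values of 6.89e-05, 7.83e-05 and 6.66e-05. Psmc6, named here after its values were seen as the exception, had 0.24 ± 0.11 (adjusted p = 0.0758) at 37 °C. The other 8 members of the 19S particle that rose did so by 0.21 (Psmc3, an ATPase) to 0.71 (Psmd2, a scaffold of the base).

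The windows of Psme3, Psmd1 and Psmd11 are shown as those of the members that rose the most among caps and 19S genes. They are chr11:101315963-101316262 on the plus strand, chr1:86064369-86064668 on the plus strand and chr11:80428365-80428664 on the plus strand (GRCm38.p6, RefSeq), with motif matches in capitals. The GENCODE start site of Psmd1 (86064387) lies near the 5′ end of its window, and the Psmd1 match begins after it. That match is upstream of the RefSeq start site only.

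Psme3: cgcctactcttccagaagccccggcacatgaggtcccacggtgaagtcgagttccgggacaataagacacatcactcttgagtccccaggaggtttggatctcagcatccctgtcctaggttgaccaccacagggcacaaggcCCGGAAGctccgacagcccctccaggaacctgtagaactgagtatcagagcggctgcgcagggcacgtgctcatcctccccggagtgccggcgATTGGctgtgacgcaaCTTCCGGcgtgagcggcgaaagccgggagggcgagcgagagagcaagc

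Psmd1: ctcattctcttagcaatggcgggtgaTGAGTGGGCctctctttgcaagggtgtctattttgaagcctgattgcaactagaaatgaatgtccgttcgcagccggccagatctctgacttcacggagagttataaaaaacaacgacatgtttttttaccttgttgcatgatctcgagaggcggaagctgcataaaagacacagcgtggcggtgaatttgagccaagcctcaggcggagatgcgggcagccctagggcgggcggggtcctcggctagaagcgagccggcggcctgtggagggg

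Psmd11: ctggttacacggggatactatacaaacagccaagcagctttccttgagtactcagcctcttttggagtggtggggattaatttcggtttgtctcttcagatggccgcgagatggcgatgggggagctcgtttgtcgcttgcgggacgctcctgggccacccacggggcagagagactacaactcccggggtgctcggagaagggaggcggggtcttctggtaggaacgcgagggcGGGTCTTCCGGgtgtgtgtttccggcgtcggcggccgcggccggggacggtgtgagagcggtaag

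Psme3 held a pair of CCGGAAG motifs (ETS), 1 on each strand, and an ATTGG. Psmd11 held CCGGAAG on the other strand, which overlaps a GGGNNTTCC match (kappa B), and Psmd1 held TGANNNNGC. Over the 42 members with an entry in the RefSeq promoter table, each motif read on both strands, CCGGAAG was in 35.7% of member windows against 9.93% of all 27025 windows and 21.3% of the 9400 windows of genes tested. TGANNNNGC was in 57.1% of member windows, 45% of all and 48.1% of those of genes tested. The other shares, for members and for genes tested, were 35.7% and 42.8% for CCAAT, 7.14% and 6.9% for GAANNTTC, 7.14% and 6.26% for GCATGCGC (nuclear respiratory factor 1), 16.7% and 8.65% for GAAANNGAA, and 2.38% and 8.64% for GGGNNTTCC. Over all windows, these were 41.1%, 9.04%, 3.05%, 9.76% and 6.58% in the same order. A match is a description of the letters and not a bound site. Psmb1, Psmb2, Psmb7, Psmc3, Psmd3, Psmd7, Psma8 and Psmg2 had no entry.

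In the constitutive 20S rings 8 of 14 members rose at 37 °C and 1 fell, against 30.9% and 31.8% of all genes tested. At 39 °C 8 rose and 0 fell, against 29.2% and 29.8%. The median log2 fold change of the members was 0.30 at 37 °C and 0.38 at 39 °C. Their summed level was 1436.2 ± 265 CPM in naive cells, 1684.8 ± 84.4 CPM at 37 °C and 1760.3 ± 133 CPM at 39 °C (SD, n = 3), with overlap between naive and activated libraries. Among the alpha subunits, whose ring gates the core, 4 of 7 rose at 37 °C. Psma5 rose by 0.58 ± 0.11 (adjusted p = 0.000776) and Psma7 by 0.54 ± 0.0955 (adjusted p = 0.000365). Psma4 rose by 0.37 ± 0.11 (adjusted p = 0.0131), a call lost with upper-quartile scaling and without 37 °C library 3 or naive library 3. Of the members not called, Psma2 was lowest at -0.0736 ± 0.13 and Psma6 highest at 0.31 ± 0.13 (adjusted p = 0.0537). Among the beta subunits Psmb2 had a rise of 0.50 ± 0.12 (adjusted p = 0.004), beside Psmb5, Psmb6 and Psmb7 above. Psmb1, named here after its values were seen as the constitutive member that fell, stood at 246, 152 and 186 CPM in naive cells and at 159, 141 and 158 CPM at 37 °C, with overlap. Its log2 fold change was -0.35 ± 0.14 (adjusted p = 0.0486), and the call was lost with the 6 libraries of the comparison alone and without any library other than naive library 2. At 39 °C it was -0.23 ± 0.14 (adjusted p = 0.177).

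Of the 7 assembly factors 1 rose at 37 °C, where 30.9% of all genes tested rose. Psmg3, part of a chaperone pair that builds the alpha ring, stood at 6.53, 4.7 and 4.68 CPM in naive cells and at 10.3, 8.41 and 10.6 CPM at 37 °C, and rose by 0.88 ± 0.16 (1.84-fold, adjusted p = 0.000406). Psmg4, its partner, had 0.22 ± 0.17 (adjusted p = 0.293). Psmg1 and Psmg2, the other chaperone pair of the alpha ring, had 0.31 ± 0.15 (adjusted p = 0.0884) and 0.30 ± 0.13 (adjusted p = 0.0658). Without naive library 1 all 3 were called higher at 37 °C, as Psmg1 was without 37 °C library 2 and as Psmg1 and Psmg2 were with no count filter (adjusted p = 0.0175 and 0.0117). At 39 °C Psmg2 also rose, by 0.34 ± 0.13 (adjusted p = 0.0448), a call lost with upper-quartile scaling, DESeq2 or the 6 libraries alone, and without 37 °C library 1 or 3, 39 °C library 1 or 2, or naive library 2 or 3. Psmd5, Psmd9 and Psmd10, which assist assembly of the 19S base, were not called at either temperature, with log2 values from -0.19 to 0.20. With upper-quartile scaling Psmd5 was called lower at both temperatures and Psmd9 at 37 °C, and Psmd9 was also called lower at 37 °C without naive library 2. Psmc3ip, the recombination factor that shares only its symbol, rose at 39 °C by 0.50 ± 0.15 (adjusted p = 0.0154), and 21.2% of its exon bases also belong to Mlx on the other strand.

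Transcripts of subunits that stand in equal number in a particle without immune subunits did not stand at equal levels. The 14 constitutive 20S members include Psmb5, Psmb6 and Psmb7, which Psmb8, Psmb9 and Psmb10 can replace. For these replaceable subunits an equal number in the cores of these cells is not given. Per kilobase of exon union, the 14 constitutive 20S members had a coefficient of variation of 38.9% ± 0.0924 within naive libraries, 41.4% ± 0.639 at 37 °C and 40.5% ± 1.14 at 39 °C (SD over 3 libraries). For the 17 members of the 19S particle it was 50.7% ± 1.25, 49.4% ± 0.577 and 51.8% ± 0.781. At 37 °C the lowest 20S level was 14.9 ± 0.423 CPM per kilobase, for the replaceable Psmb7, and the highest 96.1 ± 6.2, for Psma6. In the 19S particle Psmd1 was lowest, at 14.5 ± 0.628, and Psmc5 highest, at 103 ± 6.11. The length used matters here. With the longest transcript the highest 20S level at 37 °C was that of Psmb4 (144), and with the longest principal transcript the highest were Psma7 (223) in the 20S and Psmd4 (131) in the 19S, while Psmb7 and Psmd1 stayed lowest. The coefficient of variation of the 19S was 36.6%, 30.1% and 32.1% with the longest transcript.

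Within a group the members moved as a block from library to library. Naive library 1 was the highest of its group in 41 of the 48 members, 85.4%, against 44% of all genes tested, and naive library 2 the lowest in 39, 81.2% against 40.7%. At 37 °C library 3 was highest in 72.9% of members and library 2 lowest in 83.3%, against 34% and 35.5% of all genes. At 39 °C library 1 was highest in 81.2% and library 3 lowest in 77.1%, against 36.7% and 36.8%. The share of counts on 77 ribosomal protein genes stood in the same order within each group, at 12.7%, 8.88% and 10.4% in naive libraries 1, 2 and 3, at 7.28%, 6.69% and 7.62% at 37 °C and at 8.6%, 7.91% and 7.1% at 39 °C. Its part in the block was not tested. The count of members that rose at 37 °C was 34 without naive library 1 and 20 without naive library 2. In the same fits 4338 of 13593 and 4307 of 13583 genes rose.

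**Figure D4:**
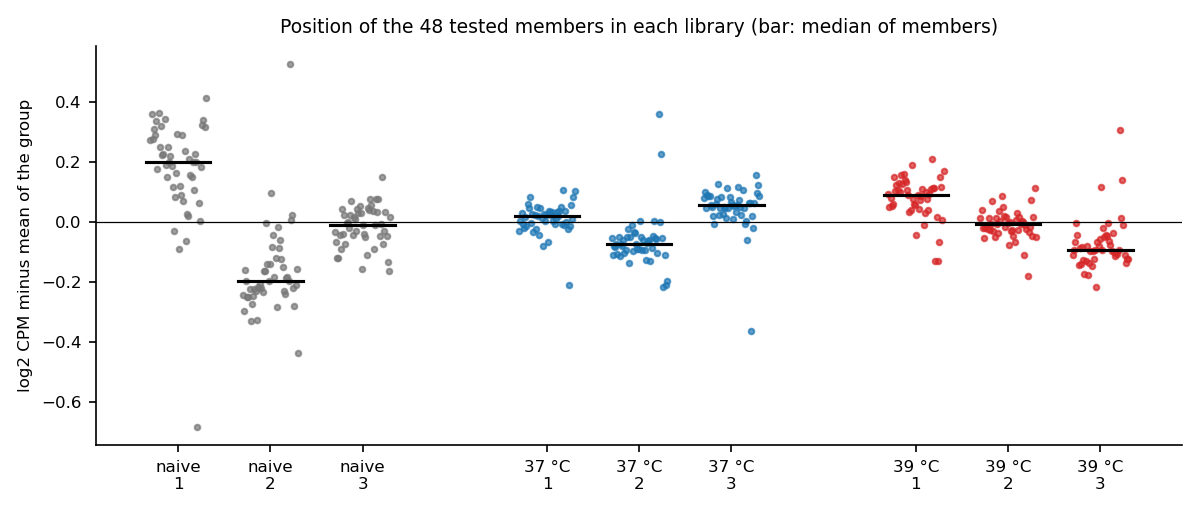
Log2 CPM of each of the 48 tested members minus its mean in the group, in each of the 9 libraries, with the median of the members as a bar. In naive library 1 most points lie above 0 and in naive library 2 most lie below, as do most in 37 °C library 2 and 39 °C library 3.

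Between the activation temperatures no member was called. The count was 0 of 48 by edgeR and 0 by DESeq2, where edgeR called 0.758% of all 13328 genes in either direction. At an unadjusted edgeR p under 0.05 there were 0 of the 48 members, against 1061 of the 13328 genes. The members' log2 fold changes of 39 °C against 37 °C ran from -0.0708 to 0.21, with a median of 0.0413 against 0.00406 over all genes. Of the 48 values 37 were above 0, a count that was 23 without 39 °C library 1, with a median of -0.00452. The 95% interval of 45 members lay within 0.5 on either side of 0, and over all members the bounds reached from -0.64 (Psme2b) to 0.55 (Psmg4). Psmb8 had 0.0994 (interval -0.15 to 0.35), Psmb9 0.0884 (-0.14 to 0.31) and Psmb10 0.12 (-0.14 to 0.37).

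The smallest p-values were those of Psme2, at 0.17 ± 0.099 (adjusted p = 0.769), Psmd4, at 0.10 ± 0.0684 (adjusted p = 0.817), and Psmd8, a 19S lid subunit, at 0.15 ± 0.10 (adjusted p = 0.825). Psmd8 stood at 145, 146 and 146 CPM at 37 °C and at 174, 161 and 149 CPM at 39 °C, so the 39 °C libraries were spread and the lowest lay next to the 37 °C ones. The libraries of the temperatures did not overlap in 3 of 48 members, Psme2 and Psmd8 with higher values at 39 °C and Psme3 with lower ones, where 20.9% of all genes did not overlap. A p above the threshold does not show that temperature left these genes alone, and the intervals give what the libraries allow.

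**Figure D5:**
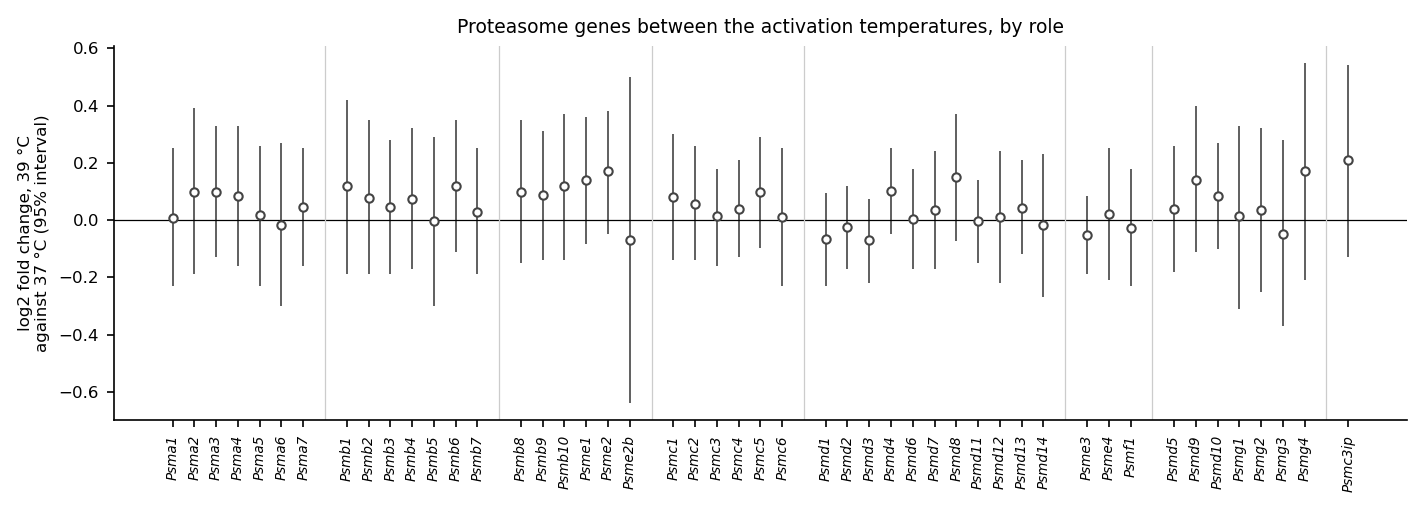
Log2 fold change of 39 °C against 37 °C for each of the 48 tested genes with its 95% interval, by role. Every interval takes in 0, and the widest are those of Psme2b and Psmg4.

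Other genes of the pathway were read from lists that hold no member and were chosen with earlier results of these data known. Over all genes 30.9% rose and 31.8% fell at 37 °C. Of the 12 tested proteasome genes without a Psm symbol, 6 rose and 2 fell at 37 °C, with a median log2 fold change of 0.27. Txnl1, a thioredoxin-like protein bound to the 19S particle, rose by 0.83 ± 0.12 and Ecpas, a 26S adaptor, by 0.51 ± 0.0819, while Zfand2b, which binds ubiquitin chains at the particle, fell by 0.75 on the log2 scale (adjusted p = 3.74e-05). Of the 11 regulators of proteasome transcription 9 rose and 2 fell. Mafg, a small Maf partner of the Nrf factors, rose by 1.52 ± 0.0794 and Bach1, a repressor at the same sites, by 1.01 ± 0.087, while Ngly1, the enzyme that strips sugars from the Nrf1 protein, fell by 1.32 (adjusted p = 7.38e-08). Nfe2l1, which encodes Nrf1 and was picked out after its values were seen, stood at 68.8, 94.5 and 92.5 CPM in naive cells and at 176, 181 and 181 CPM at 37 °C, and rose by 1.07 ± 0.10 (adjusted p = 2.52e-06). Nfe2l2, which encodes Nrf2 and was also picked out afterwards, went the other way at 37 °C, with -0.64 ± 0.0812 (adjusted p = 2.7e-05).

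Upstream of the particle, 4 of 5 shuttle factors, which bring ubiquitinated proteins to it, rose at 37 °C and 1 fell. Ubqln1 rose by 1.10 ± 0.0651, Ubqln4 by 0.95 ± 0.0694 and Rad23b by 0.67 ± 0.0663. Of the 9 genes of p97, which extracts substrates from complexes and membranes, and its cofactors, 5 rose and 3 fell, among the former Ubxn4 (0.91 ± 0.0569), Nploc4 (0.55 ± 0.0639) and Vcp, p97 itself (0.53 ± 0.0666). Among 6 ubiquitin and E1 genes 2 rose and 3 fell. The E1 enzyme genes Uba6 and Uba1 rose by 1.43 ± 0.0892 and 0.77 ± 0.0741, and Rps27a, which encodes ubiquitin fused to a ribosomal protein, had -0.49 ± 0.15. In class I antigen processing 4 of 12 rose and 7 fell. The shares that rose among the ubiquitin and class I genes are near that of all genes. The chaperone gene Canx rose by 1.18 ± 0.0713 and the trimming peptidase gene Erap1 by 0.66 ± 0.0672, whereas Tap1 and Tap2 fell as given above.

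Between temperatures 3 of the 55 genes tested in these lists were called, all lower at 39 °C. Over all genes 0.758% were called, and 83 of those 101 were lower. The lists were chosen with earlier results of these data known, so a difference between these shares is not evidence about the lists. Ubqln1 stood at 269, 258 and 276 CPM at 37 °C and at 191, 204 and 209 CPM at 39 °C, a log2 fold change of -0.41 ± 0.0642 (adjusted p = 0.0104). Ubxn4, an endoplasmic reticulum anchor for p97, stood at 196, 195 and 197 CPM against 156, 157 and 151 CPM, a change of -0.34 ± 0.0563 (adjusted p = 0.0143). Zfand2a, an arsenite-inducible protein that binds the 19S particle, stood at 44.2, 46 and 46.2 CPM against 36.5, 31.5 and 36.1 CPM, a change of -0.39 ± 0.0776 (adjusted p = 0.0453). In each gene the libraries of the temperatures did not overlap.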

How the data were processed

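Splenic CD4+ T cells were profiled by RNA sequencing in 9 libraries, 3 per group. The authors deposited 1 table of raw read counts per gene for each library, without normalisation; the build GRCm38 and the tools HTSeq, HISAT2, FastQC and DESeq2 stand in the submitters' processing notes with no version or role. The annotation release, the counter's settings and the strand setting are not given in the sources used here. Per the labels' protocols, TRIzol was used for RNA and a TruSeq kit for the libraries.

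Of the 55573 identifiers, 55480 matched GENCODE M21, which supplied symbols, exon lengths and coordinates. In edgeR 4.0.16 under R 4.3.3, filterByExpr removed genes with low counts (minimum count 10 and total 15), libraries were scaled by TMM, and 2-sided quasi-likelihood tests were run on 1 fit over all 9 libraries without a replicate block. P-values were adjusted by Benjamini-Hochberg over 13328 genes, with 0.05 as the threshold. A standard error is the absolute log2 fold change over the square root of F. The script was tested on simulated counts. Members and lists were chosen with earlier results of these data known, and no set test was run. Named genes are 17 members fixed by name, the 3 called members of each role with the largest change at 37 °C, the 3 smallest p-values between temperatures, and up to 3 called genes of each list. The members were read from the whole fit. Alternatives were other scalings, filters and thresholds, DESeq2 1.42.0, a replicate block, 6 libraries alone, other gene lengths and leaving out each library.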

Additional observations from a re-analysis of the deposited data

How the results depend on the processing

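In all settings run, Psmb8, Psmb9 and Psmb10 were called lower in both activation comparisons, and 18 members were called higher at 37 °C under all 17 alternative fits. Upper-quartile scaling gave 7 members lower at 37 °C and 6 at 39 °C, and turned Psmd4 (-0.0515) and Psme1 (-0.0873) negative at 37 °C; without naive replicate 2 the values were 5 lower at 39 °C and -0.0415 for Psme1, which ran from there to 0.17 (without naive replicate 1) over the left-out libraries. The cause was not tested. Leaving out 1 library gave 19 to 34 members higher and 3 to 6 lower at 37 °C. At 39 °C it gave 24 to 39 higher and 3 to 5 lower, and between temperatures 0 each time. Over all genes these fits gave 3723 to 4338 higher and 3806 to 4422 lower at 37 °C. At 39 °C they gave 3539 to 4219 genes higher and 3519 to 4142 lower. DESeq2 gave 25 members higher and 4 lower at 37 °C, and 27 and 3 at 39 °C. Of 29586 genes with any count it called 3888 higher and 4033 lower, and 3658 and 3719. With the replicate number as a block the member counts were 31 higher and 4 lower at 37 °C, 36 and 3 at 39 °C, and 0 between temperatures. Of all 13328 genes, 4234 were then higher and 4285 lower at 37 °C, and 4026 and 4039 at 39 °C. Psmg1 and Psmg2 were called higher at 37 °C with the block (adjusted p = 0.024 and 0.0245). Deviations from the group means correlated at -0.171 to 0.33 between same-numbered libraries and at -0.338 to 0.362 between the others, so the numbers were not used as pairs. At an adjusted p under 0.01, 19 members were higher and 3 lower at 37 °C. The variation across members depended on the length: for the 20S it was 42.2%, 41.4% and 41.8% in naive, 37 °C and 39 °C libraries with the longest transcript and 49.4%, 50.2% and 50.3% with the longest principal transcript, a choice added after seeing the data; for the 19S it was 36.6%, 30.1% and 32.1%, and 46.2%, 35.6% and 38.1%. Counts on another strand were not run. The tested members with the fewest counts were Psmc3ip (566 over 9 libraries), Psmg3 (1051) and Psme2b (1588).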
